A study of Mus musculus with 6 samples.

Results

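Collagens and linker proteins of basement membranes were examined in cultured mouse embryonic fibroblasts (MEFs). The 10 genes were chosen by name, by matching the Ensembl identifiers of the deposited table to GENCODE symbols, and all 10 were found among its 56953 genes. They are the collagen IV chain genes Col4a1, Col4a2, Col4a5 and Col4a6, the collagen XV and XVIII genes Col15a1 and Col18a1, the nidogen genes Nid1 and Nid2, and the proteoglycan genes Hspg2 (perlecan) and Agrn (agrin). The study asked how the loss of Gαq alters fibroblasts, and its bulk RNA sequencing compared 3 libraries labelled WT with 3 whose genotype label is GalfaqKO, written GαqKO below. The methods describe the second line as a knockout of both Gαq and Gα11, obtained together with the WT line from another laboratory. Both were grown in DMEM with fetal bovine serum and antibiotics, and no other treatment is labelled. Littermate origin, passage and number of clones are not given in the sources used here, so genotype and cell line cannot be told apart.

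Basement membranes are thin sheets of matrix under epithelia and endothelia and around muscle, fat and nerve cells. A laminin polymer at the cell surface and a covalently crosslinked collagen IV network form the sheet, and nidogens, perlecan and agrin tie both networks to each other and to cell receptors. Fibroblasts are known to supply part of these components, among them nidogens and the common collagen IV chains, to neighbouring epithelia. Collagen IV chains assemble as trimers, of which the one made of Col4a1 and Col4a2 products is found in nearly all basement membranes, while the products of Col4a5 and Col4a6 join in a form found around smooth muscle and in some epithelia.

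The collagen IV genes lie head to head. On GRCm39, the canonical starts of Col4a1 and Col4a2 on chromosome 8 are 317 bases apart and their first exons overlap, and those of Col4a5 and Col4a6 on chromosome X are 1282 bases apart with no overlap. The windows from 250 bases before to 50 bases after the GENCODE canonical start are printed for Col4a5 and Col4a6, whose ratio differed most between the groups, and for Nid1 and Nid2, the members that were higher in the libraries labelled GαqKO. Each is given 5′ to 3′ on the strand of its gene, at chrX:140258104-140258403 (plus strand), chrX:140257023-140257322 (minus strand), chr13:13611886-13612185 (plus strand) and chr14:19801058-19801357 (plus strand). Capitals mark the GC box GGGCGG and the CCAAT box CCAAT on either strand.
Col4a5: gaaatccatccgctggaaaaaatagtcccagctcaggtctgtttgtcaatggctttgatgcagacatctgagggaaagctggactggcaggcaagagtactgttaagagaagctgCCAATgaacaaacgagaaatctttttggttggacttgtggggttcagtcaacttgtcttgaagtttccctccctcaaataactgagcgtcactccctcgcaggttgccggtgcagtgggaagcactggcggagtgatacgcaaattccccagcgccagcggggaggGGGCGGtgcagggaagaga
Col4a6: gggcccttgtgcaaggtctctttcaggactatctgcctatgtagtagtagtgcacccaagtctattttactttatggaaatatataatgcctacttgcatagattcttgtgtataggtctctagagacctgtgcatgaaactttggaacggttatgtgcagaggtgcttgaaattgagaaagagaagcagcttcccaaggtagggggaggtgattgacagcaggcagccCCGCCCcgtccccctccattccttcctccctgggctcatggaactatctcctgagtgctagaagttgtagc
Nid1: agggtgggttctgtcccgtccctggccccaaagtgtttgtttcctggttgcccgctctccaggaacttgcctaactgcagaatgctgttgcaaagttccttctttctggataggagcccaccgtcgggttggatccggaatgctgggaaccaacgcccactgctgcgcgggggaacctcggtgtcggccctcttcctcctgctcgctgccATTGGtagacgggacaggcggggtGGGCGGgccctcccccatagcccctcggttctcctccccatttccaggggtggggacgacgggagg
Nid2: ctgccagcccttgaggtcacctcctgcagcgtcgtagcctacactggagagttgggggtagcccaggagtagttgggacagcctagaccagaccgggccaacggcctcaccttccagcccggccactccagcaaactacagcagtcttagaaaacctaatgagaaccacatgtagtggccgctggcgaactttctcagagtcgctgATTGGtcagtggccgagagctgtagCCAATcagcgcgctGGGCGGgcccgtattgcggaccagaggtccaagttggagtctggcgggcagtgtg

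Letters matching both motifs were found in the windows of Col4a5, Nid1 and Nid2, while that of Col4a6 held a GC box match alone. Over the 10 members, 7 windows held GGGCGG and 6 held CCAAT, against 42.5% and 40.0% of 21664 windows of protein-coding genes. No member's window held TATAAA or TGANTCA (AP-1) on either strand, which 13.2% and 7.16% of all windows did. Agrn had the most GC-rich window of the members, at 83.7% GC with 12 matches to GGGCGG, of which 2 share a base. Hspg2 followed in matches, with 5 at 70.3% GC. The window of Col4a6 had 48.3% GC and a ratio of observed to expected CpG of 0.172, both under the medians of all windows (54.3% and 0.518). These are matches of letters and were not tested against the expression values.

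The table holds normalized counts, which summed to between 11392429 and 11483486 per library. In 5 libraries they were whole reads per gene divided by 1 size factor, which was not shown for GαqKO replicate 3. The recovered reads of these 5 libraries ranged from 9853000 to 12229175. The labels call the libraries biological replicates without saying how the cultures were kept apart, so p-values here measure the spread among these libraries. Gnaq, the gene of Gαq, was not lower in the libraries labelled GαqKO (1926 ± 36.0 normalized counts against 1691 ± 48.5 in WT, SD, n = 3 each), whereas Gna11 fell from 2148 ± 29.0 to 451.6 ± 28.7 (SD, n = 3 each), so directions below are drawn from the labels. Of 8 fibroblast markers, Col1a2, Vim and Fn1 were high in both groups, but Thy1 was at 2.09 normalized counts in WT replicate 1 and at 0 in the other WT libraries, and Pdgfra (17.5 to 21.9 against 2274 to 2356) and Dcn (30.1 to 35.5 against 1604 to 1710) were low in all WT libraries. Pdgfrb averaged 892 in WT and 1046 in the libraries labelled GαqKO, and S100a4 170 and 518. Col1a2, Vim and Fn1 had lower means in the libraries labelled GαqKO, and the other fibroblast markers had higher means. The 6 epithelial markers summed to 515 to 541 normalized counts in WT and 10.1 to 23.1 in the libraries labelled GαqKO. Cdh1 and Krt14 made up most of this sum, while Epcam reached at most 8.09 and Krt5 at most 0.971 in any library. Both Cdh1 and Krt14 passed the filter through the WT libraries, where they were high, so they are described without a test. Endothelial, muscle and glial markers summed to at most 25.4, 19.1 and 65.8 in every library, and blood markers to 59.2 to 104, with Cd68 the marker behind most of the latter. In bulk RNA, fewer cells of a type and less RNA per cell cannot be told apart.

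Most basement membrane collagen and linker transcripts were lower in the libraries labelled GαqKO, and the nidogens were higher. Of the 10 members, 9 had 10 normalized counts or more in 3 or more libraries and were tested, and limma on log2(normalized count + 1) called each of them at an adjusted p under 0.05. Col4a1, Col4a2, Col4a5, Col4a6, Col18a1, Hspg2 and Agrn were called lower, 7 of the 9, where 34.1% of the 14096 genes tested were lower. Nid1 and Nid2 were called higher, 2 of the 9, where 31.8% of all genes tested were higher. With a log2 fold change under -1 as well, Col4a5, Col4a6, Col18a1 and Agrn remained (10.5% of all genes tested), and over 1 Nid2 remained (10.2% of all genes tested). The median log2 fold change was -0.69 over the 9 members and -0.01 over all genes tested. Col4a6 passed the filter only because it was high in the WT libraries, so these counts and the median are descriptions. The groups did not overlap in any of the 9, as in 69.6% of all genes tested, nor in Col15a1, so a lack of overlap does not set the members apart. Fold changes are on the log2(normalized count + 1) scale, on which the change of a gene with few counts comes out too small.

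**Figure D1:**
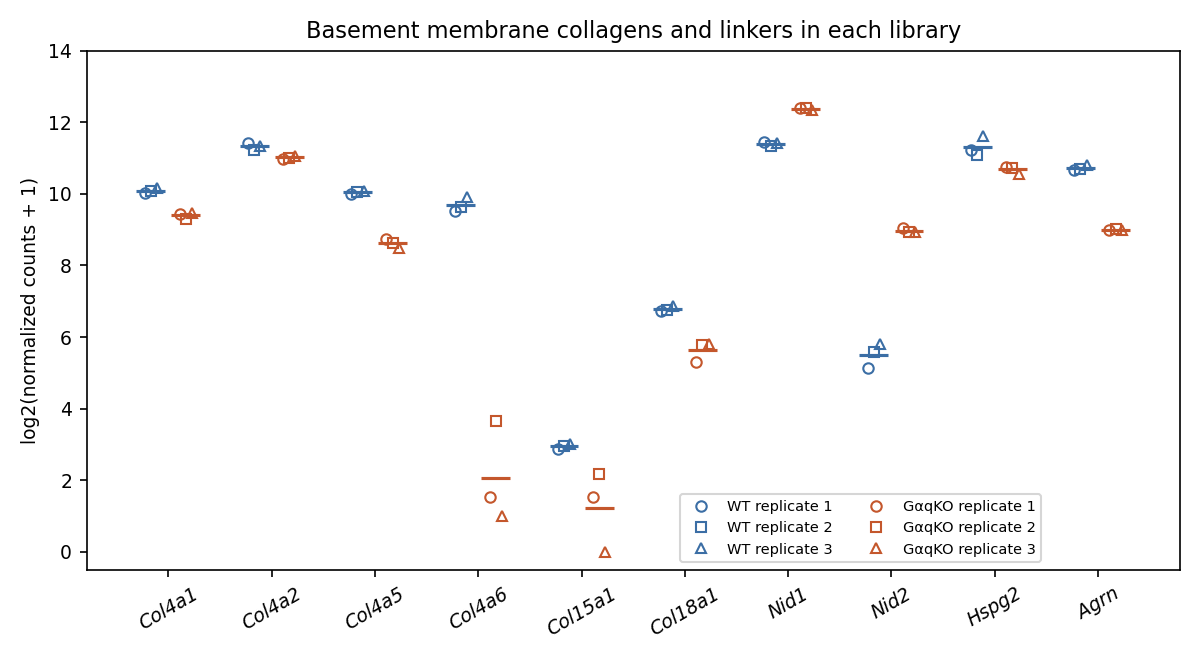
Level of each member in each of the 6 libraries, as log2(normalized counts + 1), with WT in blue and GαqKO in red, a marker shape per replicate number and a line at the group mean. On this scale Col4a2 has the closest group means and Col4a6 and Nid2 the widest gaps, and the groups do not overlap in the 9 tested members, as in 69.6% of all genes tested.

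Col4a1 (ENSMUSG00000031502.12), on the minus strand of chromosome 8 from 11248423 to 11362826, encodes a chain of the most widespread collagen IV trimer. Its normalized counts were 1048, 1079 and 1152 in WT and 697, 631 and 712 in the libraries labelled GαqKO. The lowest WT library thus stood well above the highest GαqKO library. The means were 1093 ± 53.3 and 680.0 ± 42.9 (SD, n = 3 each), which gave -0.69 as log2 fold change (standard error 0.062, limma adjusted p = 3.63e-07). Col4a2 (ENSMUSG00000031503.14; chromosome 8, 11362471 to 11499287, plus strand), which encodes its partner chain, had 2747, 2401 and 2566 normalized counts in WT and 2014, 2065 and 2146 in the libraries labelled GαqKO. This was the smallest change among the members tested, with a log2 fold change of -0.31 (standard error 0.053, limma adjusted p = 0.000161), and the nearest libraries of both groups were 2401 and 2146. Of the exon bases of Col4a1 and Col4a2, 27.8% and 19.9% lie within the spans of other genes, and the strand setting of the authors' counting is not stated, so how reads there were assigned is not known. The remaining chain genes, Col4a3 and Col4a4, which act with Col4a5 in kidney and other specialized membranes, reached at most 6.27 and 10.7 normalized counts in any library and were not tested.

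Within a library, Col4a2 had 2.62, 2.23 and 2.23 times the normalized counts of Col4a1 in the 3 WT libraries and 2.89, 3.27 and 3.01 times in the libraries labelled GαqKO. The ratio rested on the same scaling in both genes and was higher in every GαqKO library (mean 3.06 ± 0.194 against 2.36 ± 0.228, SD, n = 3 each; exact permutation test, two-sided, p = 0.1, the smallest that 3 against 3 libraries allow). Per exon length the means were 2.45 and 3.18.

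Col4a5 (ENSMUSG00000031274.17; chromosome X, 140258354 to 140472231, plus strand), the collagen IV chain gene mutated in X-linked Alport syndrome, had 1021, 1067 and 1076 normalized counts in WT. The libraries labelled GαqKO had 429, 395 and 356, all well below the WT range. The means were 1055 ± 29.3 and 393.7 ± 36.4 (SD, n = 3 each), which gave -1.42 as log2 fold change (standard error 0.071, limma adjusted p = 7.15e-10). Col4a6 (ENSMUSG00000031273.17; chromosome X, 139948399 to 140257072, minus strand), the neighbour that starts next to it and encodes the chain it pairs with, had 741, 789 and 965 normalized counts in WT. In the libraries labelled GαqKO it had 1.88, 11.6 and 1.01, with 2 and 10 reads behind the values of replicates 1 and 2. Col4a6 was thus near absent in every GαqKO library, with replicate 2 the highest of them. The means were 831.7 ± 117.8 and 4.82 ± 5.86 (SD, n = 3 each) and the log2 fold change was -7.63 (standard error 0.482), given as a description because the gene passed the filter through WT. Its size depends on the pseudocount, at -7.88 with 0.5 and -6.56 with 5, and it was -8.43 without GαqKO replicate 2.

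Other values are set beside Col4a6 here, in the same direction or not, and their part in its difference was not tested. The epithelial markers Cdh1 (235 to 241 normalized counts in WT, 5.04 to 10.4 in the libraries labelled GαqKO) and Krt14 (254 to 261 in WT, at most 2.31 in the other group) had the same direction. Over 267 protein-coding genes of at least 300000 bases with a mean under 20, the summed normalized counts were 3149, 845.1 and 2245 in WT and 2241, 3620 and 1636 in the libraries labelled GαqKO. The highest of these sums was in GαqKO replicate 2, the library with the most Col4a6 in its group. Over the 484 tested genes of chromosome X the median log2 fold change was -0.27. Of the tested genes beside the pair, Atg4a, 1106 bases from Col4a6, had a log2 fold change of -0.54 that did not pass the test (limma adjusted p = 0.125), and Psmd10 had 0.09 (limma adjusted p = 0.288). On the Col4a5 side, the nearest tested genes were Nxt2, which was lower (-0.28, limma adjusted p = 0.0462), and Acsl4, which was higher (0.89, limma adjusted p = 4.97e-09).

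The ratio of Col4a6 to Col4a5 within a library was 0.726, 0.740 and 0.897 in WT. In the libraries labelled GαqKO it was 0.00438, 0.0292 and 0.00282. Col4a6 was therefore lower relative to Col4a5 in each GαqKO library, with group means of 0.787 ± 0.095 and 0.0121 ± 0.0148 (SD, n = 3 each; exact permutation p = 0.1, two-sided, the smallest possible). Col4a6 made up 15.0% ± 1.72 of the normalized counts of the 4 collagen IV genes in WT and 0.155% ± 0.189 in the libraries labelled GαqKO, while the share of Col4a2 was 46.3% ± 2.69 and 65.8% ± 1.47 (SD, n = 3 each). Col4a5 went from 19.0% to 12.5% and Col4a1 from 19.7% to 21.6% of the same sum. The sum itself was 5551 ± 212 in WT and 3154 ± 56.9 in the libraries labelled GαqKO (SD, n = 3 each), a ratio of 0.568, with exact permutation p = 0.1 (two-sided) for the sum and for each share.

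**Figure D2:**
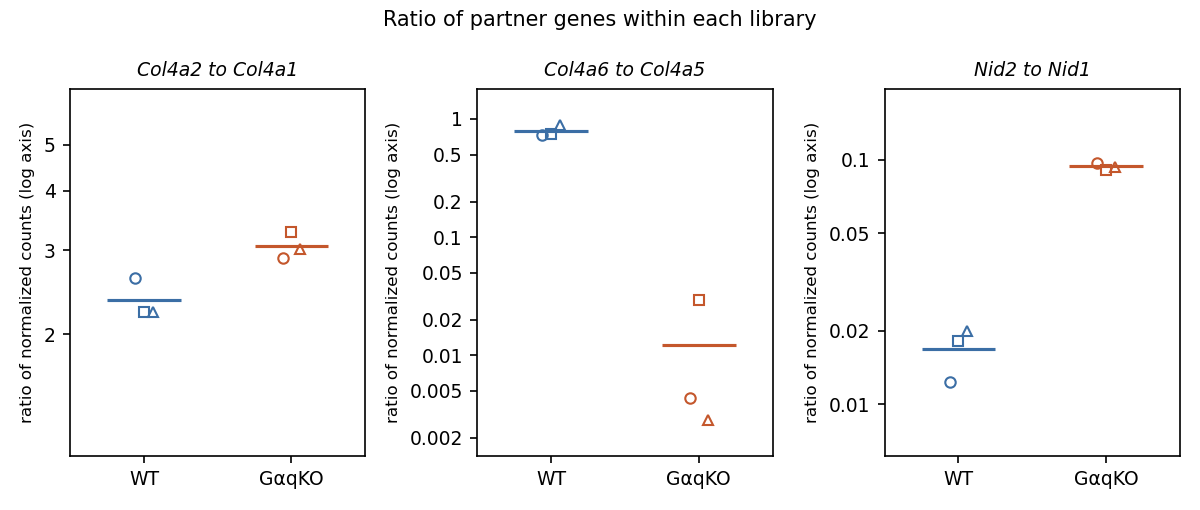
Ratio of normalized counts within each library for Col4a2 to Col4a1, Col4a6 to Col4a5 and Nid2 to Nid1, on log axes that differ between panels, with WT in blue, GαqKO in red and a line at each mean. The first and last ratios were higher in the 3 GαqKO libraries, and the mean Col4a6 to Col4a5 ratio was 0.787 in WT and 0.0121 in GαqKO.

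Col18a1 (ENSMUSG00000001435.16; chromosome 10, 76888012 to 77002390, minus strand) encodes collagen XVIII, a collagen with heparan sulfate chains whose C-terminal fragment is endostatin. It had 104, 107 and 116 normalized counts in WT and 38.5, 54.3 and 55.4 in the libraries labelled GαqKO. All WT libraries stood above 100, all GαqKO libraries under 60, and GαqKO replicate 1 was the lowest. The log2 fold change was -1.14 (standard error 0.181, limma adjusted p = 7.97e-05), and it was -0.98, on the other side of the fold threshold, without GαqKO replicate 1. A share of 33.3% of its exon bases lies within the spans of other genes, among them Slc19a1. Col15a1 (ENSMUSG00000028339.18; chromosome 4, 47207582 to 47313179, plus strand), the homologue encoding collagen XV of muscle and vessel basement membranes, was close to the detection limit everywhere. It had 6.27, 6.80 and 7.12 normalized counts in WT and 1.88, 3.47 and 0 in the libraries labelled GαqKO, from 6, 7 and 7 reads in WT and 2 and 3 reads in GαqKO replicates 1 and 2. It was under the filter and was not tested, and no ratio to Col18a1 was formed.

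Nid1 (ENSMUSG00000005397.9; chromosome 13, 13612071 to 13686860, plus strand) encodes nidogen-1, which binds the laminin γ1 chain and collagen IV. Its normalized counts were 2789, 2566 and 2747 in WT and 5392, 5417 and 5205 in the libraries labelled GαqKO, so each GαqKO library was far above the WT range. The means were 2701 ± 118 and 5338 ± 116 (SD, n = 3 each), which gave 0.98 as log2 fold change (standard error 0.044, limma adjusted p = 2.32e-10). This lies just under the fold threshold of 1, and it was just over it, at 1.01 to 1.02, with quantile normalization and in both count tests on 5 libraries. Nid2 (ENSMUSG00000021806.5; chromosome 14, 19801298 to 19861855, plus strand), the homologue with overlapping binding partners, was low in WT, at 34.5, 46.6 and 55.0 normalized counts. It had 525, 491 and 488 in the libraries labelled GαqKO. Its mean was 11.1 times the WT mean (501.6 ± 20.3 against 45.4 ± 10.3, SD, n = 3 each), and the fitted log2 fold change was 3.46 (standard error 0.153, limma adjusted p = 2.0e-10). Of its exon bases, 11.8% also belong to exons of the neighbour Rtraf.

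Both nidogens thus rose, Nid2 by the larger factor and Nid1 by more counts. The ratio of Nid2 to Nid1 was 0.0124, 0.0182 and 0.02001 in the WT libraries and 0.0974, 0.0907 and 0.0938 in the libraries labelled GαqKO (means 0.0168 ± 0.00399 and 0.0940 ± 0.00332, SD, n = 3 each; exact permutation p = 0.1, two-sided, the smallest possible). The share of Nid2 in the nidogen counts went from 1.66% ± 0.387 to 8.59% ± 0.277 (SD, n = 3 each), so Nid1 still gave the bulk of the nidogen transcripts. Together the nidogens summed to 2746 ± 116 normalized counts in WT and 5840 ± 126 in the libraries labelled GαqKO (SD, n = 3 each), a ratio of 2.13 (exact permutation p = 0.1, two-sided).

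Hspg2 (ENSMUSG00000028763.19; chromosome 4, 137196079 to 137298231, plus strand) encodes perlecan, the large heparan sulfate proteoglycan that links the collagen IV network to growth factors and nidogens. It had 2383, 2192 and 3164 normalized counts in WT and 1725, 1695 and 1516 in the libraries labelled GαqKO. The groups did not overlap, but WT replicate 3 was well above the other WT libraries. The log2 fold change was -0.63 (standard error 0.103, limma adjusted p = 9.72e-05), and -0.48 (limma adjusted p = 6.81e-07) without WT replicate 3. Agrn (ENSMUSG00000041936.19; chromosome 4, 156249740 to 156282014, minus strand) encodes agrin, which binds laminins and dystroglycan and clusters acetylcholine receptors at the neuromuscular junction. It had 1638, 1645 and 1790 normalized counts in WT and 504, 521 and 512 in the libraries labelled GαqKO. Agrn was thus more than 3 times as high in every WT library as in any GαqKO library. The means were 1691 ± 86.0 and 512.4 ± 8.64 (SD, n = 3 each), which gave -1.72 as log2 fold change (standard error 0.055, limma adjusted p = 7.77e-12). Over the 860 tested genes of chromosome 4, which carries Hspg2, Agrn and Col15a1, the median log2 fold change was -0.35, and over chromosome 8, which carries Col4a1 and Col4a2, it was 0.29 (803 genes). The other member chromosomes 10, 13 and 14 had medians of -0.28, -0.01 and 0.07.

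The 3 heparan sulfate carriers Hspg2, Agrn and Col18a1 summed to 4380 ± 605 normalized counts in WT and 2207 ± 108 in the libraries labelled GαqKO (SD, n = 3 each), a ratio of 0.504 (exact permutation p = 0.1, two-sided). Over all 10 members the sums lay closer, at 12684 ± 882 and 11202 ± 183 (SD, n = 3 each), a ratio of 0.883, with the higher nidogen counts in the same sum. The member transcripts were 0.111% of all normalized counts in WT and 0.0981% in the libraries labelled GαqKO.

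**Figure D3:**
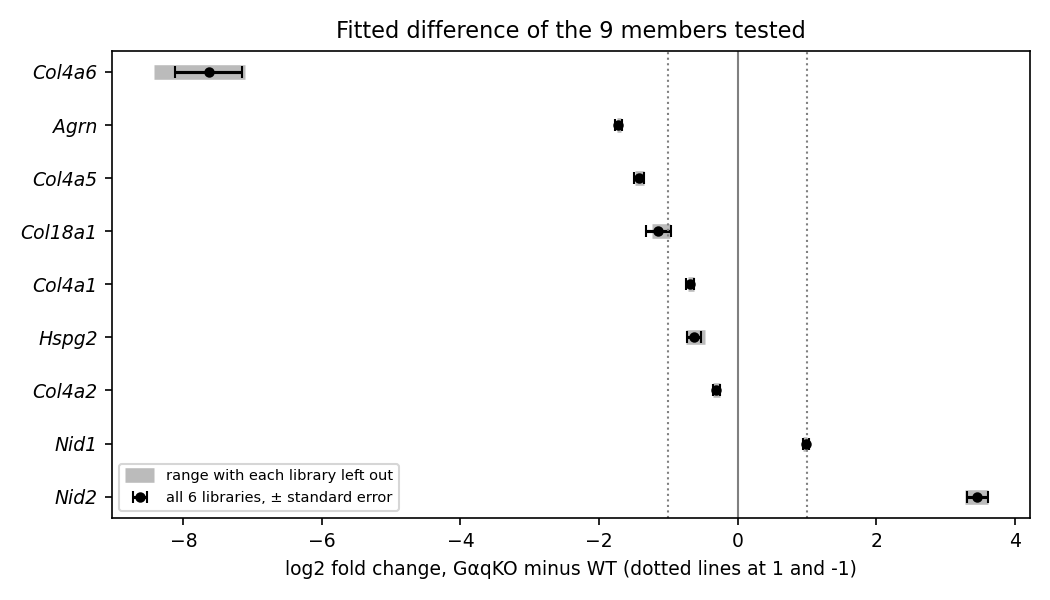
Fitted log2 fold change, GαqKO minus WT, of the 9 members tested, with the standard error as a bar and the range over fits that leave out each library in grey. Nid1 and Nid2 lie above 0 and 7 members below it, Nid1 and Col18a1 sit next to the dotted fold thresholds, and no range crosses 0.

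Levels were put on a common scale as normalized counts per 1000 bases of annotated exon. The canonical transcripts of Col4a1 and Col4a5 have 52 and 53 exons, and those of Nid1 and Nid2 have 20 and 21. How reads that span exon junctions were handled is not given in the sources used here. Its effect on the order of genes was not tested, so ranks between genes are descriptions. In WT, Nid1 (360.2) and Col4a2 (358.2) were highest and their libraries overlapped. Agrn (176), Hspg2 (162) and Col4a1 (146) came next, and Hspg2, which ran from 138 to 199 per 1000 bases, overlapped both. Col4a5 (113) and Col4a6 (104) also overlapped each other, followed with gaps by Col18a1 (15.4), Nid2 (6.98) and Col15a1 (0.970). In the libraries labelled GαqKO, Nid1 stood alone at 712 per 1000 bases, ahead of Col4a2 at 289. Hspg2 (103) and Col4a1 (91.1) followed with ranges that touch, and Nid2, at 77.2, had moved from rank 9 to rank 5, ahead of Agrn at 53.3, which had moved from 3 to 6. Col4a5 (42.2) and Col18a1 (6.996) were next, and Col4a6 (0.604) and Col15a1 (0.257) overlapped at the bottom. The ranks were the same with the length of the canonical transcript in place of all exons, but the overlaps changed. In WT, Nid1 and Col4a2, Agrn and Hspg2, and Col4a5 and Col4a6 then no longer overlapped, while Col4a5 overlapped Col4a1 and Hspg2. In the libraries labelled GαqKO, Nid2 (102.3) then overlapped Col4a1 (102.8) and Hspg2 (113), so the order of these genes was not resolved.

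**Figure D4:**
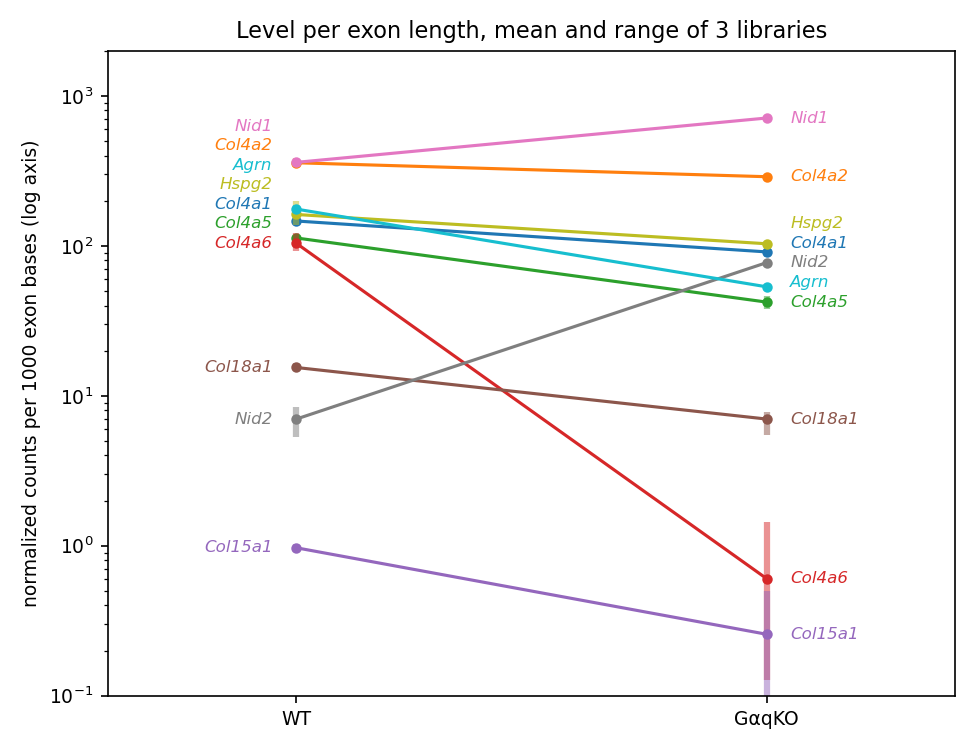
Mean level of each member in WT and in GαqKO, in normalized counts per 1000 exon bases on a log axis, with the range of 3 libraries as a vertical bar that is clipped at 0.1 for Col15a1, whose lowest value is 0. Lines join the means of a gene, and Nid2 moved from rank 9 to 5, Agrn from 3 to 6 and Col4a6 from 7 to 9.

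Companion genes of the same structure were taken from lists, whose counts describe them without a test of the list. Over all genes tested, 31.8% were called higher and 34.1% lower. Some listed genes passed the filter only through the group where they are high, so the counts and medians are descriptions. Of 11 laminin chain genes 8 were tested, with 3 higher and 4 lower and a median log2 fold change of -0.31. Lamc1, which encodes the γ1 chain that nidogens bind, had 3422 ± 217 and 2964 ± 184 normalized counts in WT and the libraries labelled GαqKO (SD, n = 3 each), and its log2 fold change of -0.21 (limma adjusted p = 0.00495) was not called once limma's prior spread had no trend (adjusted p = 0.0578). Beside this small difference in the nidogen partner, Lamb1 (0.61) and Lamb2 (0.38) rose, and Lama5, the α5 chain of mature epithelial membranes, fell from 779 ± 102 to 25.0 ± 10.5 normalized counts (SD, n = 3 each; log2 fold change -4.97, limma adjusted p = 1.56e-10). Among 20 other basement membrane genes, 10 were tested, 1 was higher (Fbln1, 0.40, limma adjusted p = 0.00182, but 0.0579 in DESeq2) and 6 were lower, with a median of -0.91. Npnt, the gene of nephronectin (-3.54), and Fbln2, which encodes the nidogen-binding fibulin-2 (-2.23), had the largest falls there.

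Among 13 receptor genes, 10 were tested, with 4 higher, 4 lower and a median log2 fold change of 0.07. Dag1, which encodes dystroglycan, the receptor that agrin, perlecan and laminins bind, had 4279 ± 217 normalized counts in WT and 4239 ± 193 in the libraries labelled GαqKO (SD, n = 3 each; log2 fold change -0.01, limma adjusted p = 0.822). Itgb1, the common integrin β1 chain, rose from 8254 ± 209 to 12548 ± 174 (SD, n = 3 each; 0.60 on the log2 scale, limma adjusted p = 1.04e-08), as did the laminin receptor chain Itga6 (1.44), whereas Itga7, another laminin receptor chain, fell by 5.27 and Ddr1, a collagen receptor that binds collagen IV, fell by 1.94 on the log2 scale. Itga1, a collagen IV receptor chain, averaged 6.44 and 5.70 normalized counts and was not tested.

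The 18 genes of collagen IV folding, secretion and crosslinking were all tested, with 5 higher (3 without GαqKO replicate 2), 9 lower and a median log2 fold change of -0.07. Serpinh1, the gene of the collagen chaperone HSP47, had 16398 ± 596 and 16722 ± 515 normalized counts in the WT and GαqKO groups (SD, n = 3 each; log2 fold change 0.03, limma adjusted p = 0.582). Pxdn, which encodes the peroxidase that forms sulfilimine bonds in collagen IV, had a log2 fold change of -0.19 (limma adjusted p = 0.00357). The largest fall in this list was in Loxl2, a lysyl oxidase that crosslinks collagen IV, from 3364 ± 241 to 412.0 ± 35.3 normalized counts (SD, n = 3 each; -3.03, limma adjusted p = 3.19e-13), followed by the lysyl hydroxylase gene Plod2 (-1.20). P3h3 (1.35), named for the prolyl 3-hydroxylase family, and Crtap (0.73), of a prolyl 3-hydroxylation complex, rose most.

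All 21 genes of heparan sulfate synthesis and trimming were tested, with 6 higher, 12 lower and a median log2 fold change of -0.28. These enzymes build the chains that perlecan, agrin and collagen XVIII carry. Ext1, a subunit of the chain polymerase, had a log2 fold change of 0.07 (limma adjusted p = 0.123). Sulf1 and Sulf2, endosulfatases that remove 6-O-sulfates outside the cell, went from 423.2 ± 26.8 and 657.6 ± 34.7 normalized counts in WT to 3.76 ± 2.43 and 6.85 ± 2.84 (SD, n = 3 each). Both passed the filter only through the WT libraries, so their levels are given without a test. They are among the 12 genes counted as lower, as are others that passed the filter in the same way. The N-sulfotransferase gene Ndst2 (1.09) and Extl2 (0.41) had the largest rises among genes with a mean of at least 100. Of 18 genes of proteases and their inhibitors, 10 were tested, with 5 higher, 4 lower and a median of 0.13. A further 4 were listed at 0 in all libraries, among them the inhibitor genes Timp1 and Timp3. Whether a listed 0 means no expression was not tested, and how reads in overlapping genes were counted is not stated. Mmp9, a gelatinase that cleaves collagen IV and passed the filter only through the libraries labelled GαqKO, went from 12.1 ± 6.57 normalized counts to 234.9 ± 17.7 (SD, n = 3 each), and Ctsl rose by 1.504 on the log2 scale, whereas Mmp2, the other gelatinase gene (-0.90), and the inhibitor gene Timp2 (-0.61) fell.

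**Figure D5:**
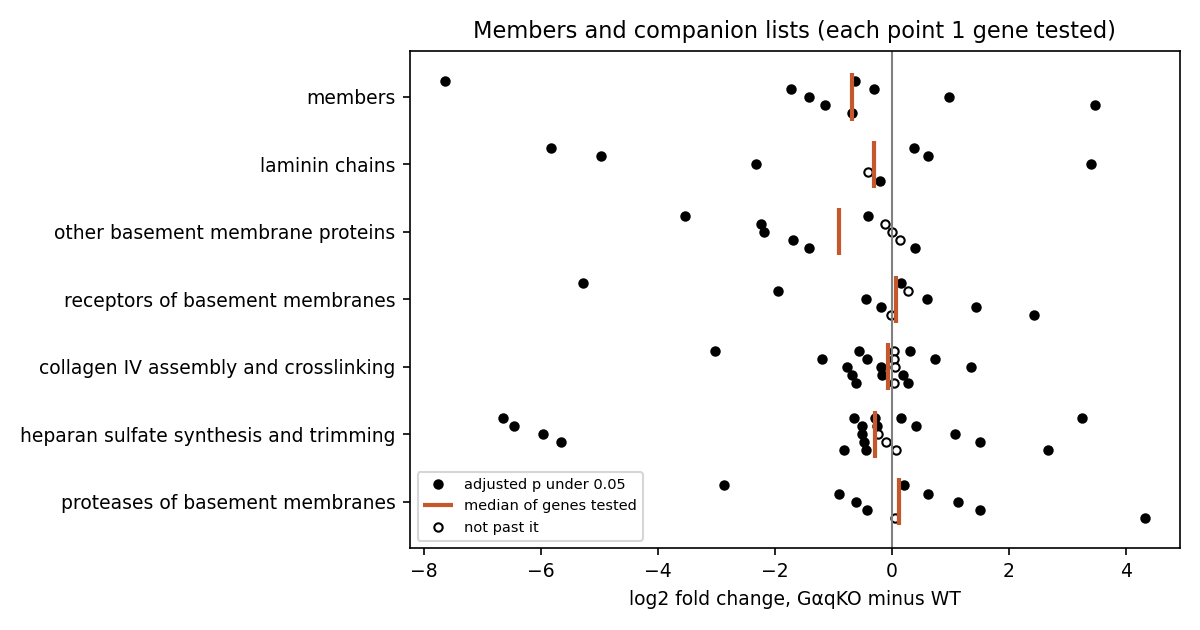
Log2 fold change, GαqKO minus WT, of every tested member and companion gene, 1 point per gene, filled where the limma adjusted p is under 0.05, with a red line at the median of each list. Points are spread vertically within a list for legibility only, and each list holds genes on both sides of 0, with medians from -0.91 to 0.13.

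The genes whose log2 values followed Col4a1 most closely over the 6 libraries were Ppil4 (Pearson r = 0.9999), Uggt2 (0.9987) and Dock6 (0.9986), out of 10032 tested genes with a mean of at least 100. All 6 points share the split into genotype groups, so that high coefficients are common, and they are given as a description. Ppil4, the closest, had 1042, 1059 and 1129 normalized counts in WT and 712, 656 and 730 in the libraries labelled GαqKO, at nearly the level of Col4a1 in each library. Among the members, Agrn was the closest to Col4a1 (r = 0.984, rank 456), then Col4a5 (0.974, rank 945), while its trimer partner Col4a2 had r = 0.905 and rank 2699.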

How the data were processed

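Bulk RNA sequencing of MEFs gave 6 libraries, grouped by their genotype labels. After poly-A selection and a stranded kit, the authors aligned paired reads to GRCm39 with Rbowtie2, counted them per gene with featureCounts (GENCODE release 32) and deposited normalized counts, a signal of reads divided by a size factor. Tool versions, the strand setting and the feature counted are not given in the sources used here. In 5 libraries all nonzero values were whole multiples of 1 read (tolerance 0.1 read), and the reads of GαqKO replicate 3 were not used.

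Symbols, exons and promoter windows came from GENCODE release M39 on GRCm39, which matched 56310 of 56953 identifiers. limma 3.58.1 in R 4.3.3 was fitted to log2(normalized count + 1) over 14096 genes that had 10 normalized counts or more in 3 or more libraries, using a trended prior spread, and p-values were adjusted over all of them by the Benjamini-Hochberg method. Calls needed an adjusted p under 0.05, and fold thresholds were log2 fold changes of 1 and -1. Ratios and sums were compared with exact permutation tests over libraries. edgeR 4.0.16 and DESeq2 1.42.0 on the recovered reads of 5 libraries, other pseudocounts, filters and scalings, a replicate block and leaving out each library were alternatives. The fitting script was tested on simulated data. Python 3.11.15 was used for the other steps.

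All members, with Col4a3 and Col4a4, are named. From each companion list the text names the largest 2 rises and 2 falls among called genes with a mean of at least 100, plus Lamc1, Dag1, Itga1, Itgb1, Serpinh1, Pxdn, Ext1, Timp1 and Timp3, and 3 genes most like Col4a1. A gene that this rule selects is not reported here. Members and lists were chosen with earlier results of these data known.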

Additional observations from a re-analysis of the deposited data

How the results depend on the processing

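All 143 fold changes of members under the 16 alternatives kept their direction and stayed past the adjusted p threshold. The 15 of Col4a6 among them are descriptions, because it passed the main filter only through the WT libraries. The count of members higher past the fold threshold was 1, and it was 2 with quantile normalization, 2 in edgeR and 2 in DESeq2 on recovered reads, and from 1 to 2 with each library left out (2 without WT replicate 1 and 2 without GαqKO replicate 3), because Nid1 lies next to the threshold. The count of members lower past the fold threshold was 4, and it was 3 without GαqKO replicate 1 (Col18a1) and 3 when 10 normalized counts were required in every library, a filter that removes Col4a6. With no filter on low values it was 5 and the count of lower members 8, since Col15a1 was then tested and called (limma adjusted p = 0.0397 of 26091 genes). The replicate block left 7 members lower and 2 higher and changed no other call of a member. Same-numbered libraries had correlations of deviations of -0.082, -0.016 and -0.058 over 10033 genes, so the numbers were not taken to pair the samples. Among companion genes, the uncalled value of Dag1 (-0.01) became 0.0298 in edgeR and 0.0218 in DESeq2 and ran from -0.0523 to 0.0205 with each library left out, and the uncalled value of Serpinh1 (0.03) became -0.0916 with quantile normalization. For these the cause was not tested. Of 442 fold changes of named companion genes, 435 kept direction and call. The count of other basement membrane genes that were higher, 1, became 4 with no filter and 2 with quantile normalization and in edgeR, and that of higher collagen IV assembly genes, 5, became 3 without GαqKO replicate 2. The levels of Col4a6 and Col15a1 in the libraries labelled GαqKO rest on 10 reads or fewer in each library with recovered reads, so their order is not resolved at this depth.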
